A study of Arabidopsis thaliana with 8 samples.

Results

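The gibberellin oxidase genes of Arabidopsis were examined in hypocotyls with and without activation of a strigolactone signalling repressor. These genes encode the enzymes of the last steps of gibberellin (GA) synthesis and of GA inactivation. The 10 members were taken by locus from the 37573 rows of the count table, by a rule that names the genes and uses no expression value, although earlier results of these data were known when it was set. They are the GA 20-oxidases *GA20OX1*, *GA20OX2* and *GA20OX3*, the GA 3-oxidases *GA3OX1* and *GA3OX2*, and the GA 2-oxidases *GA2OX1*, *GA2OX2*, *GA2OX4*, *GA2OX6* and *GA2OX8*. A further 6 genes of these families were not members and are given where a result turns on them.

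All 8 RNA-seq libraries came from plants carrying the *SMXL7pro:SMXL7d53-GR* transgene, with the genotype labelled WT. SMXL7 is a transcriptional repressor that strigolactone signalling marks for degradation, d53 is a form of it that resists degradation, and GR is a glucocorticoid receptor domain that ties the activity of the fusion to dexamethasone (DEX). In the DEX group, plants 4 weeks old were watered with 15 µM DEX, and in the mock group with the same volume of the solvent DMSO, with 4 libraries each. The plants had spent 3 weeks under 10 h of light and 1 week under 16 h of light per day, and their hypocotyls were taken 5 h after watering. The transgene was driven by the *SMXL7* promoter, so that it is active only where that promoter is. No plants without the transgene received DEX, and thus effects of the fusion protein and of DEX itself cannot be told apart. The number of plants behind each library is not given in the sources used here. The labels do not say that the replicates came from separate cultures or plantings, so the p-values measure the spread between these libraries, which may be technical. Endogenous and transgenic *SMXL7* share a row, AT2G29970, which averaged 24703 ± 257 normalised counts in DEX and 33487 ± 1913 in mock libraries (SD, n = 4 each). This row cannot show activation, since DEX acts on the protein.

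Between 47976811 and 63996960 reads were counted per DEX library, and between 49220724 and 85953231 per mock library. Of the 11 markers of hypocotyl vascular tissue and periderm none was at 0, and their summed normalised counts lay between 47604 and 51528 in DEX and between 42526 and 45472 in mock libraries. Most of this difference lay in *ATHB8*, with means of 8514 in DEX and 4968 in mock libraries. By the thresholds given below, it was the only 1 of the 11 called, beside 6.45% of all tested genes. *APL* was also higher in DEX without overlap, and *WOX4* and *SUC2* were lower without overlap. The 5 markers of root tips and root hairs summed to no more than 40.5 normalised counts in any DEX and 63.8 in any mock library. Markers of leaf, stomatal and shoot meristem cells were also present, as described beside *GA2OX1*.

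Gibberellins are diterpenoid hormones that promote stem elongation, flowering and the formation of xylem fibres in the hypocotyl. GA20ox enzymes carry precursors through successive oxidations, and GA3ox enzymes then make the bioactive forms. GA2ox enzymes remove these forms and their immediate precursors, apart from a subgroup with GA2OX7 and GA2OX8, which acts on earlier precursors with a longer carbon skeleton. Bioactive GA binds GID1 receptors, which leads to the degradation of DELLA growth repressors. DELLA proteins in turn raise the transcription of GA20ox and GA3ox genes, and GA raises that of several GA2ox genes.

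The promoter sequences of 3 members are shown because *GA2OX6* and *GA2OX1* were the members whose treatments did not overlap, and *GA3OX1* was the most abundant member. Each is the 300 bases directly before the annotated gene start, read from the TAIR10.1 assembly with the RefSeq gene models, on the strand of the gene. They lie at chr1:486500-486799 (+ strand) for *GA2OX6*, chr1:29513101-29513400 (- strand) for *GA2OX1* and chr1:5346343-5346642 (- strand) for *GA3OX1*. Capitals mark a match to any of 5 motifs searched on both strands.
GA2OX6: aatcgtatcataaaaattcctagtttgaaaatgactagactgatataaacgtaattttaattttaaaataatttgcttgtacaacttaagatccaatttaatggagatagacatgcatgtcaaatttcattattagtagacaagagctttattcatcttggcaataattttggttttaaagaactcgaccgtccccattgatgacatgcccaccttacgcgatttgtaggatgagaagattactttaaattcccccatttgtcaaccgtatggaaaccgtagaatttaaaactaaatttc
GA2OX1: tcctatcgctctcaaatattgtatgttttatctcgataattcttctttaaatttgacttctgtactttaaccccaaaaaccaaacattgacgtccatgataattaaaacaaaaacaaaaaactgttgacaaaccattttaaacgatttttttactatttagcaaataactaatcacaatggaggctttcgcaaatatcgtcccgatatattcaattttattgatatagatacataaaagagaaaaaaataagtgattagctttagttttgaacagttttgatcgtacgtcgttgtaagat
GA3OX1: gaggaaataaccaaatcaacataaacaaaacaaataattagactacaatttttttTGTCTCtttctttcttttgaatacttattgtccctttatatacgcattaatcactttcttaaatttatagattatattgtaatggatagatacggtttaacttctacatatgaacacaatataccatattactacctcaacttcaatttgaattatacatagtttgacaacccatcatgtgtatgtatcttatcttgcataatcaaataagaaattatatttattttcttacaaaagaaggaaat

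The motifs searched were ATAACAA, to which the related protein SMXL6 is known to bind, the auxin response element TGTCTC, the G-box CACGTG, the dehydration-responsive element ACCGAC, which is bound by factors such as DDF1, and the TCP core GGNCCC. No member held more than 1 match. *GA2OX6* and *GA2OX1* had a match to none of them in these 300 bases. *GA3OX1* had TGTCTC from 245 to 240 bases before its start. *GA2OX8* had the same element from 24 to 19 bases before its start, so that 2 of 10 members held it, against 13.0% of 27443 promoters of the same length. *GA2OX4* had CACGTG from 90 to 85 bases before its start, 1 of 10 members against 7.09% of promoters. ATAACAA was found in 0 of 10 members and 14.1% of promoters, ACCGAC in 0 of 10 and 5.45%, and GGNCCC in 0 of 10 and 8.20%. The promoters of the members had a GC content between 23.3% and 32.0%, which was not compared with that of other promoters. A match of letters is not a binding site, and its absence from this window says nothing of the factor.

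In the same annotation, *GA2OX6* (AT1G02400) lies at chr1:486800-489651 and has 990 coding bases in 3 exons. No exon of a member overlaps another gene, so reads of neighbours do not enter their counts by way of shared bases. The coding sequences of the members are between 966 and 1143 bases long. Members of the same class were 45.9% to 77.5% identical in a global alignment of coding sequences (median 55.4% over 14 pairs), and members of different classes 44.3% to 50% (median 47.5% over 31 pairs). The closest pair was *GA20OX1* with *GA20OX2* at 77.5%, followed by *GA3OX1* with *GA3OX2* at 74.3%. The exons of each member were also matched to the rest of the nuclear genome, keeping the match of highest identity among those of at least 75 bases. For *GA20OX1* and *GA20OX2* this match was with each other, over 711 bases at 78.6% identity. *GA2OX4* matched the pseudogene AT3G17200 at 85% over 120 bases, and *GA2OX2* matched *GA2OX3* at 81.8% over 247 bases. For *GA2OX6* and *GA2OX8* no match of at least 75 bases was found elsewhere in the nuclear genome.

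Of the oxidase genes, *GA2OX6* was higher in DEX than in mock hypocotyls, *GA2OX1* was lower by fold change and adjusted p but too weakly expressed to be called, and the GA20ox and GA3ox genes that could be tested showed no called change. DEX was compared with mock on all genes by the quasi-likelihood test of edgeR, with p-values adjusted by the Benjamini-Hochberg method over 21289 tested genes. A gene was called when its adjusted p was under 0.01, its log2 fold change was past 0.585 (1.5-fold) in either direction and its mean normalised count was over 50. Normalised counts are counts scaled by the TMM method to the mean effective library size. Of the 10 members, all had counts, 8 passed the filter on low counts and 5 had a mean over 50. Of the 8 tested, 1 was called, which was higher in DEX, and 0 were called lower. Among all tested genes, 6.45% were called, 4.64% as higher and 1.81% as lower. DESeq2 also called 1 member higher and 0 lower, and at an unadjusted p under 0.05 edgeR took 1 as higher and 1, *GA2OX1*, as lower. That threshold took 41.8% of all tested genes, 20.9% as higher and 20.9% as lower. The median log2 fold change of the 8 was -0.05, against -0.01 over all tested genes, with 4 positive and 4 negative values. In whole hypocotyls, fewer cells that express a gene and less RNA per cell cannot be told apart.

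**Figure D1:**
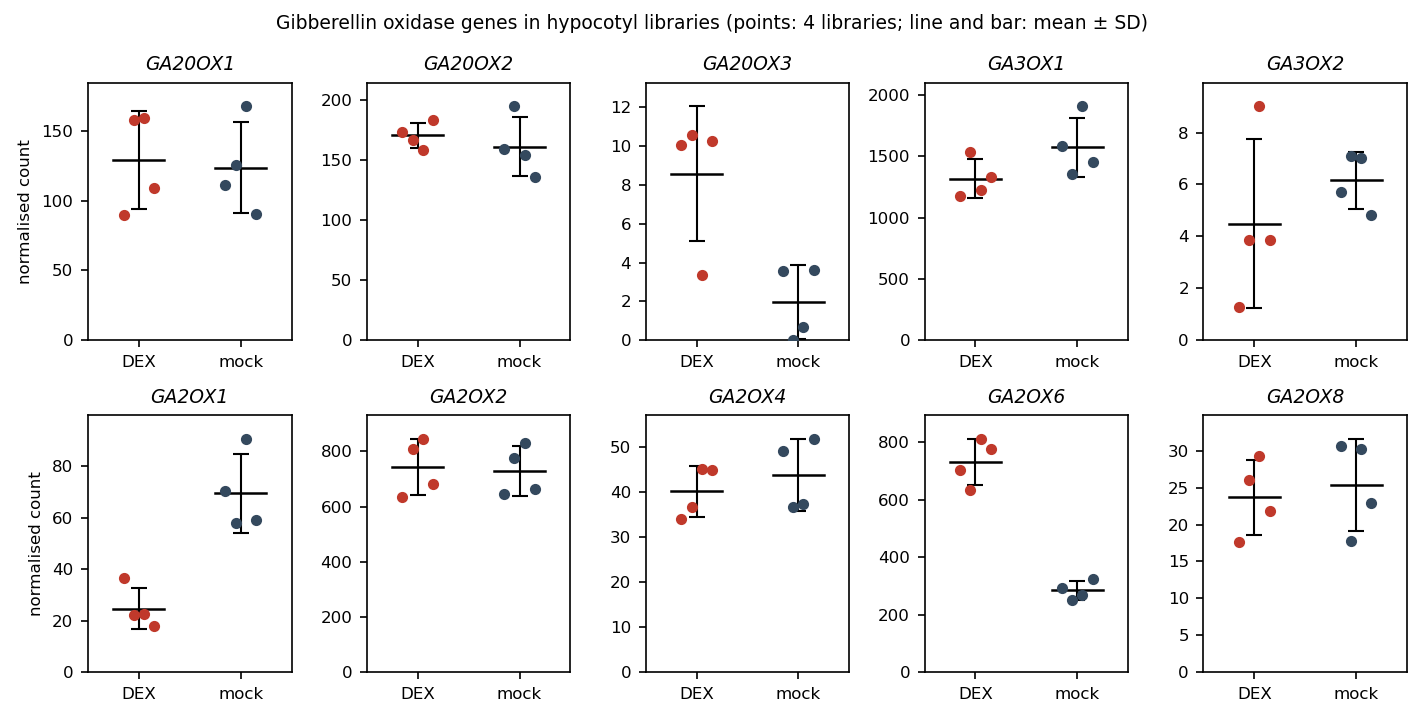
Normalised counts of the 10 gibberellin oxidase genes (y axis, from 0, with a scale of its own for each gene) in the 4 DEX (left, red) and 4 mock libraries (right, blue), with points for libraries, the line for the mean and the bar for the SD. The DEX points of *GA2OX6* lie between 635 and 813, above the mock points between 251 and 327, and those of *GA2OX1* between 18.0 and 36.5, below the mock points between 57.9 and 90.8.

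The levels of the members differed by more than 100-fold. On the RPKM scale, which divides counts by exon length and by TMM-scaled library size, *GA3OX1* was the highest member in both treatments, with 14.3 ± 1.73 in DEX and 17.1 ± 2.63 in mock libraries (SD, n = 4 each). It lay above 63.5% of tested genes. In DEX libraries *GA2OX6* followed with 8.07 ± 0.876 RPKM and then *GA2OX2* with 5.15 ± 0.696 RPKM. In mock libraries their order was turned, with 5.05 ± 0.621 RPKM for *GA2OX2* and 3.14 ± 0.357 RPKM for *GA2OX6*. The ranges over 4 libraries of these 3 genes overlapped in neither treatment. Exon lengths joined all isoforms of a gene, with 2382 bases for *GA2OX2* and 1497 for *GA2OX6*. In DEX libraries their mean normalised counts were close, at 743 and 732, so that their order there rests on these lengths. *GA20OX2* came next with 1.81 ± 0.111 RPKM in DEX and 1.70 ± 0.260 RPKM in mock, and *GA20OX1* had 1.38 ± 0.375 RPKM in DEX and 1.32 ± 0.348 RPKM in mock. These 2 neighbours overlapped in range in both treatments. Below them, *GA2OX4* had 0.538 ± 0.0762 RPKM in DEX and 0.587 ± 0.106 RPKM in mock, while *GA2OX1* had 0.312 ± 0.102 RPKM in DEX and 0.875 ± 0.192 RPKM in mock. These 2 genes overlapped in range in DEX, with *GA2OX4* higher on average, and did not overlap in mock, with *GA2OX1* higher. In mock the range of *GA2OX1* also met that of *GA20OX1*. *GA2OX8* had 0.263 ± 0.0562 RPKM in DEX and 0.282 ± 0.0692 RPKM in mock, and overlapped *GA2OX1* in DEX only. *GA20OX3* and *GA3OX2* stayed below 0.11 RPKM in each of the 8 libraries.

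Of the GA20ox genes, which make the precursors of bioactive GA, the 2 that were tested differed between treatments by less than the spread between libraries. *GA20OX1* (AT4G25420, chr4:12990851-12992585) had 89.4, 158, 159 and 109 normalised counts in DEX replicates 1 to 4 and 111, 125, 167 and 90.4 in mock replicates 1 to 4. The treatments overlapped over nearly their whole range. By edgeR the log2 fold change was 0.05 (95% interval -0.43 to 0.54, SE 0.22, adjusted p = 0.876), and this interval ends just short of the fold change threshold. The sign of so small a value turned when DEX replicate 2 or 3 or mock replicate 1 or 4 was left out. *GA20OX2* (AT5G51810, chr5:21055179-21056881) had 174, 167, 159 and 183 normalised counts in DEX and 159, 195, 154 and 136 in mock libraries. The DEX values lay within the range of the mock values. The log2 fold change by edgeR was 0.08 (95% interval -0.16 to 0.33, SE 0.11, adjusted p = 0.617).

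The third member of the class, *GA20OX3* (AT5G07200, chr5:2243553-2245339), was near the limit of detection. Its raw counts were 8, 11, 3 and 8 in DEX and 5, 0, 1 and 3 in mock libraries, 30 reads against 9 in total. A count of 0 in mock replicate 2 allows up to 3 counts, or 3.54 normalised counts, which covers counting error only. In normalised counts DEX replicate 3, at 3.38, lay below mock replicates 1 and 4, at 3.56 and 3.62. The gene did not pass the filter on low counts. In a fit without that filter its log2 fold change was 2.03 (SE 0.60, edgeR adjusted p = 0.0194). This adjusted p was not under 0.01, and the mean of 5.27 normalised counts lay below the minimum for a call at any p. *GA20OX4* and *GA20OX5*, the remaining genes of the class, had no more than 2 reads in any library. Summed over the class, the level was 3.28 ± 0.277 RPKM in DEX and 3.05 ± 0.456 RPKM in mock libraries (SD, n = 4 each).

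GA3ox genes make bioactive GA, and nearly all of their transcripts came from 1 gene. *GA3OX1* (AT1G15550, chr1:5344388-5346342) had 1178, 1538, 1228 and 1329 normalised counts in DEX and 1585, 1353, 1909 and 1452 in mock libraries. The lowest 2 values were those of DEX replicates 1 and 3 and the highest 2 those of mock replicates 3 and 1, but DEX replicate 2 lay above mock replicates 2 and 4. The edgeR estimate of its log2 fold change was -0.26 (95% interval -0.53 to 0.01, SE 0.12, adjusted p = 0.127), and thus a change of 1.5-fold in either direction lies outside the interval. *GA3OX2* (AT1G80340, chr1:30200466-30202349) had raw counts of 1, 4, 8 and 3 in DEX and 8, 6, 10 and 4 in mock libraries. These treatments overlapped, the gene did not pass the filter on low counts, and its adjusted p without the filter was 0.562 (edgeR). *GA3OX1* took 99.3% of the summed RPKM of the class in DEX and 99.4% in mock libraries. *GA3OX3* and *GA3OX4* had at most 5 reads in any library.

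GA2ox genes inactivate GA, and within this class the members differed in direction. *GA2OX6* had 703, 635, 813 and 777 normalised counts in DEX and 292, 251, 270 and 327 in mock libraries. Every DEX library was above every mock library, and the lowest DEX value was close to 2 times the highest mock value. It was 2.57-fold higher in DEX (95% interval 2.23 to 2.96), or 1.36 on the log2 scale (SE 0.09), with an edgeR adjusted p of 5.2e-07. In the 15 alternative fits its log2 fold change ran from 1.31 to 1.43 and its adjusted p was at most 6.3e-06. The treatments did not overlap with DEX above mock for 1 of the 8 tested members, *GA2OX6*, and for 16.2% of all tested genes. The 2 treatments differed for *GA2OX6* by more than the spread between libraries, whose SD was 79.5 normalised counts around a mean of 732 in DEX and 32.4 around 285 in mock.

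*GA2OX1* (AT1G78440, chr1:29511561-29513100) had 36.5, 22.2, 22.5 and 18.0 normalised counts in DEX and 70.6, 57.9, 90.8 and 59.1 in mock libraries. Each DEX library lay below each mock library, which held for 1 of the 8 tested members and for 15.1% of all tested genes. The mean was 24.8 ± 8.10 in DEX and 69.6 ± 15.3 in mock (SD, n = 4 each), 2.86-fold lower in DEX (log2 fold change -1.52, 95% interval -2.02 to -1.02, SE 0.23, edgeR adjusted p = 2.9e-04). It passed the thresholds of adjusted p and fold change but not that of the mean, which was 47.2 over all libraries, and was thus not called. When any DEX library was left out, the mean exceeded 50 and the gene was called lower, with log2 fold changes from -1.74 to -1.40. Some markers of other shoot cells were lower in DEX as well. Of 13 markers of leaf, stomatal and shoot meristem cells, 11 were tested and 6 were called lower, against 1.81% of all tested genes. The 6 were the stomatal lineage genes *TMM*, *SPCH*, *EPF2* and *FAMA* with log2 fold changes of -1.68, -1.41, -1.07 and -0.84, the floral meristem gene *LFY* with -1.15 and the photosynthesis gene *LHCB1.1* with -0.81. Of the genes listed as shoot meristem markers, *STM* had a log2 fold change of 0.53, below the threshold, with every DEX library above every mock library. *CLV3* had one of -0.15 with overlapping treatments, and *WUS*, which was not tested, averaged 12.5 normalised counts in DEX and 8.73 in mock libraries. Over all libraries *STM* averaged 9489 normalised counts, against 19.7 for *CLV3* and 10.6 for *WUS*. *STM* may thus not mark shoot meristem cells in these hypocotyls, and the cells behind its level were not tested. The leaf gene *AS1* had -0.15, also with overlap. The sum of the 13 was between 74597 and 87271 normalised counts in DEX and between 92753 and 123750 in mock libraries, and none was at 0. Most of this sum was the photosynthesis gene *RBCS1A*, with means of 51592 in DEX and 70697 in mock libraries. It had a log2 fold change of -0.45 and was not called. *LHCB1.1* had means of 10640 in DEX and 18623 in mock libraries, while *STM* went the other way, with 11198 and 7780. The sum thus says little of the stomatal and meristem markers. The part of the 13 markers in the difference of *GA2OX1* was not tested.

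*GA2OX2* (AT1G30040, chr1:10537457-10540044) had 636, 810, 846 and 681 normalised counts in DEX and 645, 777, 831 and 663 in mock libraries. The DEX and mock values covered nearly the same range. On the log2 scale it differed by 0.03 (95% interval -0.21 to 0.27, SE 0.11, edgeR adjusted p = 0.858), with a sign that turned in 5 of 15 alternative fits. *GA2OX4* (AT1G47990, chr1:17698598-17701041) had 34.0, 36.6, 45.0 and 44.9 normalised counts in DEX and 49.2, 36.6, 37.3 and 51.8 in mock libraries. Its mean was below 50, and the log2 fold change was -0.12 (95% interval -0.52 to 0.28, SE 0.18, edgeR adjusted p = 0.657). *GA2OX8* (AT4G21200, chr4:11302682-11306770), of the subgroup that acts on early precursors, had 17.6, 26.0, 29.3 and 21.8 normalised counts in DEX and 30.7, 17.7, 30.3 and 22.9 in mock libraries. The treatments overlapped for both genes. For *GA2OX8* the log2 fold change was -0.13 (SE 0.24, edgeR adjusted p = 0.716), and its 95% interval from -0.65 to 0.38 did not exclude a change of 1.5-fold towards lower levels.

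**Figure D2:**
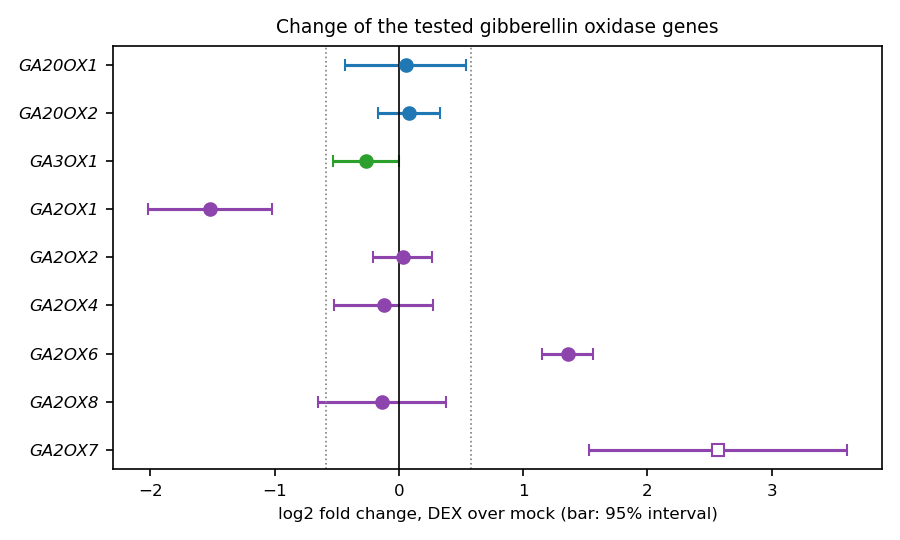
Log2 fold changes of DEX over mock (x axis) for the tested gibberellin oxidase genes (y axis), with bars for 95% intervals, filled circles for members, an open square for *GA2OX7*, which is no member, and dotted lines at 0.585 in either direction. The intervals of *GA2OX6* (1.36) and *GA2OX7* (2.57) lie right of the right line and that of *GA2OX1* (-1.52) left of the left line, while the other 6 include 0.

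*GA2OX7* (AT1G50960), which is no member and belongs to the same subgroup as *GA2OX8*, had the largest fold change of the oxidase genes tested. It had 291, 217, 562 and 550 normalised counts in DEX and 54.9, 77.9, 101 and 30.1 in mock libraries, without overlap. The gene was called, at 2.57 on the log2 scale with an SE of 0.44 and an edgeR adjusted p of 0.00388. The DEX libraries fell into a lower and a higher pair, and the call was lost without DEX replicate 3, mock replicate 1 or mock replicate 2 (adjusted p = 0.0101, 0.0136 and 0.0140) and with a replicate block. *GA2OX3* had at most 8 reads in any library.

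The make-up of the GA2ox class is described here without a test. Summed over its 7 genes, the level was between 16.7 and 23.8 RPKM in DEX libraries and between 10.3 and 12.1 RPKM in mock libraries. The mean was 20.0 ± 3.51 RPKM in DEX and 10.9 ± 0.840 RPKM in mock (SD, n = 4 each). *GA2OX6* made up 40.8 ± 3.18% of this sum in DEX and 29.1 ± 4.73% in mock libraries. *GA2OX7* made up 26.8 ± 7.76% in DEX and 8.15 ± 3.26% in mock libraries. *GA2OX2* held 26.3 ± 5.21% in DEX and 46.4 ± 3.28% in mock libraries, with a nearly equal level in both treatments. *GA2OX1* held 1.64 ± 0.732% in DEX and 8.01 ± 1.21% in mock libraries. These sums add transcripts of enzymes that act on different gibberellins, and they are levels of RNA, not of enzyme or hormone. The shares also depend on the exon lengths used, such as the 2382 bases of *GA2OX2*.

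**Figure D3:**
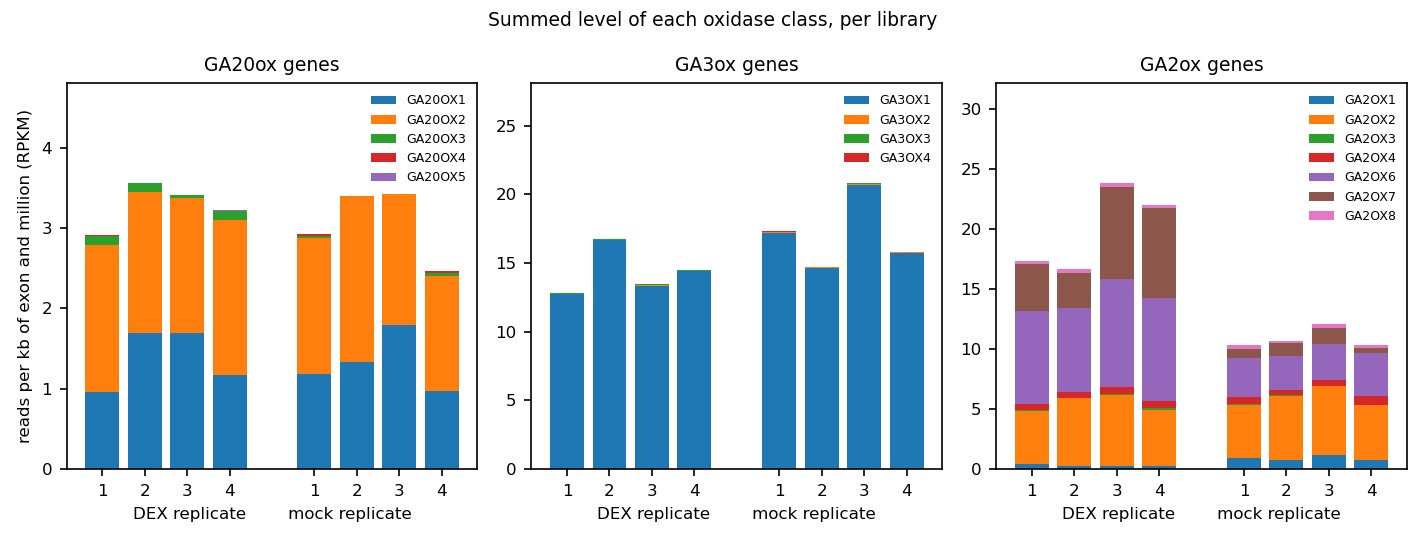
Summed level (y axis, RPKM, from 0) of the GA20ox, GA3ox and GA2ox genes in each of the 4 DEX (left) and 4 mock libraries (right), with colours for genes. The sums of GA2ox genes lie between 16.7 and 23.8 in DEX libraries, above those between 10.3 and 12.1 in mock libraries, and those of GA20ox and GA3ox genes overlap.

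The other genes of the GA pathway were taken from lists of textbook members, 53 genes in all, of which 43 were tested, 5 were called higher and 0 lower in DEX by edgeR and by DESeq2, beside 4.64% and 1.81% of all tested genes by edgeR. At an unadjusted p under 0.05, edgeR took 12 as higher and 14 as lower, beside 20.9% of all tested genes in each direction. The median log2 fold change of the 43 was 0.05. Among the 5 tested genes of early biosynthesis, 1 was called. *GA1* (AT4G02780), whose product copalyl diphosphate synthase starts the pathway, had 906, 1036, 997 and 867 normalised counts in DEX and 541, 424, 539 and 447 in mock libraries. All DEX values were above all mock values, by 0.95 on the log2 scale with an SE of 0.09 (edgeR adjusted p = 6.5e-06). The genes of the next steps, *GA2* and *GA3*, had log2 fold changes of -0.25 and -0.22, and *KAO1* and *KAO2*, which make the first gibberellin, had -0.08 and 0.21. By the edgeR adjusted p alone, 2 of the 5 were higher, *GA1* and *KAO2*, and 2 were lower, *GA2* and *GA3*. That rule took 10.9% of all tested genes as higher and 8.69% as lower. Other routes of inactivation held 4 genes, of which 2 were tested and 0 called, also at an unadjusted p under 0.05 (edgeR). *ELA1*, a cytochrome P450 that inactivates GA, did not pass the filter on low counts, with raw counts of 2, 3, 2 and 3 in DEX and 17, 13, 14 and 29 in mock libraries.

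None of the 11 GA signalling genes was called by edgeR or DESeq2, with log2 fold changes from -0.43 for the receptor *GID1C* to 0.37 for the DELLA gene *RGL1*. At the adjusted p alone, without the thresholds of fold change and mean, 1 of them was higher and 2 were lower, and at an unadjusted p under 0.05 these counts were 1 and 7, beside 20.9% of all tested genes in each direction. The 3 of 11 were *RGL1* and the receptors *GID1B* (-0.37) and *GID1C*. For all tested genes the rule of the adjusted p alone took 19.6%, with 10.9% as higher and 8.69% as lower. The GASA family, small peptides of which several respond to GA, had 8 of 14 genes tested and 0 called, with 1 higher and 1 lower at an unadjusted p under 0.05 (edgeR). *GASA1* had the lowest value, -0.88 on the log2 scale, with an adjusted p of 0.0611 (edgeR).

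Of 13 known regulators of GA oxidase genes, 2 were called higher, beside 4.64% of all tested genes. At the adjusted p alone, 6 of the 13 were higher and 2 lower, beside 10.9% and 8.69% of all tested genes. *DDF1* (AT1G12610), an AP2-type transcription factor known to activate *GA2OX7* under salt stress, had 5532, 5701, 6969 and 6359 normalised counts in DEX and 662, 799, 840 and 1076 in mock libraries. The lowest DEX value was above 5 times the highest mock value, a log2 difference of 2.87 with an SE of 0.15 (edgeR adjusted p = 2.7e-06). *TEM2* (AT1G68840), whose product together with TEM1 is known to repress *GA3OX1* and *GA3OX2*, had 2919, 2563, 2817 and 2775 normalised counts in DEX and 1150, 901, 1638 and 1143 in mock libraries. It was higher by 1.18 on the log2 scale, with an SE of 0.16 (edgeR adjusted p = 9.6e-04). *AGL15*, a MADS-domain factor known to activate *GA2OX6* in embryos, had a log2 fold change of 0.07. The class I KNOX genes *STM*, *KNAT1*, *KNAT2* and *KNAT6*, of a family known to repress *GA20OX1* and to raise *GA2OX2* and *GA2OX4* in the shoot apex, had log2 fold changes of 0.53, 0.22, 0.29 and 0.09, below the threshold. No test linked a regulator to an oxidase gene here.

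Among GA transporters, 4 of 6 were tested and 2 called higher, beside the same 4.64%. *SWEET14* (AT4G25010), a sugar transporter that also carries GA, had 146, 138, 100 and 93.7 normalised counts in DEX and 22.1, 11.8, 30.3 and 21.7 in mock libraries. It was higher by 2.42 on the log2 scale, with an SE of 0.23 (edgeR adjusted p = 7.6e-06). Its close relative *SWEET13* was higher by 0.72 on the log2 scale with an SE of 0.17 (edgeR adjusted p = 0.00814), a call that was lost when any library other than DEX replicate 1 or mock replicate 3 was left out. The importer gene *NPF3.1* had -0.27 and was not called.

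**Figure D4:**
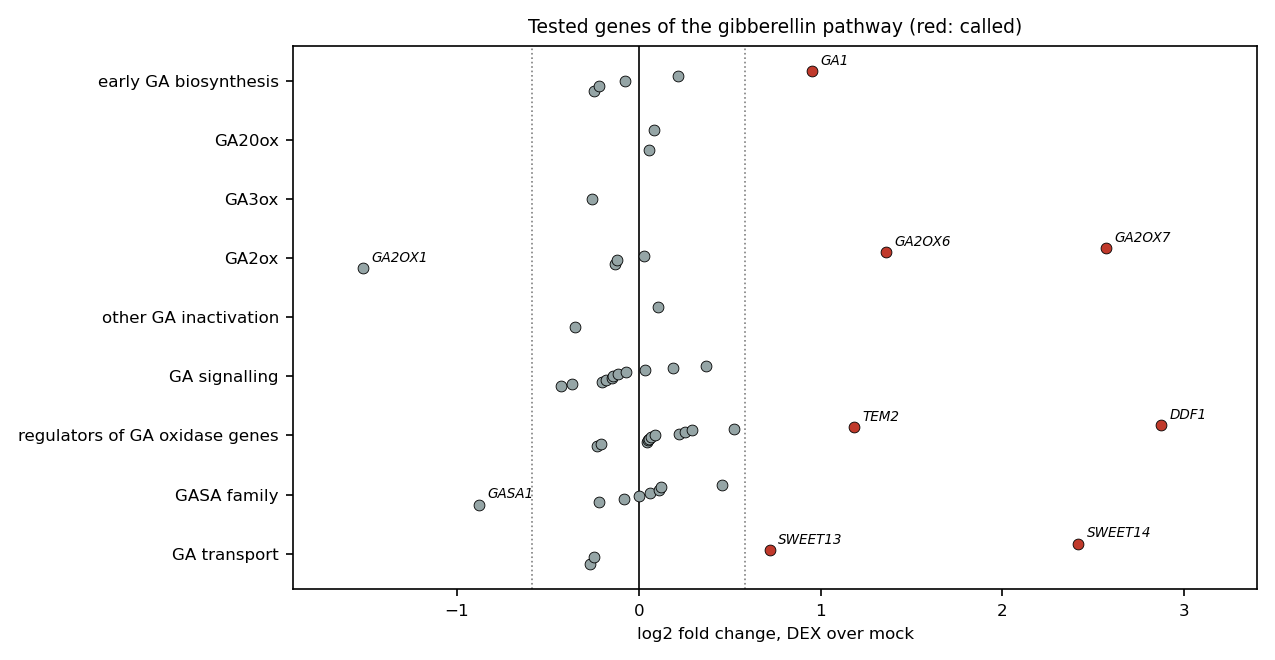
Log2 fold changes of DEX over mock (x axis) for the tested genes of the gibberellin pathway, in rows by list (y axis), with called genes in red, all others in grey and dotted lines at 0.585 in either direction. The red points are *GA1*, *GA2OX6*, *GA2OX7*, *DDF1*, *TEM2*, *SWEET13* and *SWEET14*, all right of 0, and *GA2OX1* (-1.52) and *GASA1* (-0.88) are the grey points left of the left line.

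The 3 genes most like *GA2OX6* over the 8 libraries, by the Euclidean distance between log2 CPM values (counts scaled by library size) centred on each gene's mean, were AT5G24600 (distance 0.251), *SUE4* (AT3G55880, 0.264) and AT4G20830 (0.272). These genes had between 208 and 324, between 1177 and 1396, and between 475 and 572 normalised counts in DEX libraries, in this order. In mock libraries they had between 83.8 and 112, between 458 and 538, and between 180 and 227 normalised counts. Their log2 fold changes were 1.48, 1.32 and 1.39, beside 1.36 for *GA2OX6*, and describe the same libraries that the distance used. *GA2OX6* is also a member of the auxin- and abscisic acid-inducible gene lists used by the study, and *GA20OX1* and *GA20OX2* of its auxin-inducible list.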

How the data were processed

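RNA of hypocotyls was sequenced from poly(A)-selected libraries of a kit that does not mark strand, with 4 DEX and 4 mock libraries grouped by their labels. The authors mapped reads with STAR (version 2.7.8a in the submitters' processing notes, which also name the build TAIR10), discarded reads with several mapping places and assigned the rest to genes in union mode, ignoring strand. The deposited table holds these raw counts, and antisense reads cannot be told apart in it. A second deposited table of counts that the authors normalised with DESeq2 1.34.0 was not used. All 37573 rows were matched by locus to the RefSeq annotation of TAIR10.1, which gave names, gene models, exon lengths and promoters, and 9500 rows had 0 counts throughout.

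Counts were analysed with edgeR 4.0.16 in R 4.3.3 (TMM, filterByExpr, robust glmQLFit, glmQLFTest, treatment as the only term), with Benjamini-Hochberg adjustment over 21289 tested genes and the call thresholds given in the text, which follow the study's methods. The SE of a log2 fold change was derived from the F statistic. The biological coefficient of variation was 0.0662, and counts of libraries of the same treatment differed by more than sampling noise (chi-square per gene between 6.26 and 25.9), so that all 8 libraries counted as separate samples and, except for genes with few counts, the number of libraries limits precision more than depth. In simulated data with these means and library sizes, changes were put only into genes with means above the minimum for a call. Of those changed 2-fold, 66 of 67 were called. Of 67 genes changed 1.5-fold, which is the call threshold itself, 60 passed the adjusted p and 30 were called. These shares are averages over the changed genes, and the share for a gene with a spread like that of *GA20OX1* was not simulated apart. They do not apply to *GA2OX1*, *GA2OX4* and *GA2OX8*. The mean normalised counts of these members, 47.2, 41.9 and 24.5, lay below the minimum for a call.

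The genes named are the members, the remaining oxidase genes, called genes of the GA lists, and the 3 genes nearest to the called member with the largest change. Other list genes and markers named as examples were chosen after their values were seen. The members and lists were chosen with earlier results of these data known. RPKM values were computed here from the counts, the TMM-scaled library sizes and the exon lengths. Coding sequences were aligned with Biopython 1.88, and exon sequences were matched to the nuclear genome with blastn 2.17.0. Alternatives were DESeq2 1.42.0, other scalings, filters and thresholds, thinned libraries, a replicate block and leaving out each library.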

Additional observations from a re-analysis of the deposited data

How the results depend on the processing

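Of 252 alternative values for 17 named genes, 229 kept their direction and their side of the thresholds. The log2 fold change of *GA20OX1* ran from -0.061 to 0.25 when single libraries were left out and turned negative without DEX replicate 2 (-0.061) or 3 (-0.056) or mock replicate 1 (-0.00040) or 4 (-0.053). That of *GA2OX2* was -0.014 under scaling by total counts, ran from -0.036 to 0.11 when single libraries were left out, and was negative without DEX replicate 2 (-0.012) or 3 (-0.036) or mock replicate 1 (-0.025) or 4 (-0.0059). The count of members called lower was 0 and became 1, *GA2OX1*, with the adjusted p alone and with no minimum on the mean count, an alternative chosen after seeing the data, since both remove that minimum. Leaving out single libraries gave 0 to 1 such members, always 1 called higher, 901 to 994 genes higher, 327 to 426 lower, and 4 to 5 genes of the GA lists higher and 0 lower. The adjusted p alone took 2320 genes as higher and 1850 as lower, against 987 and 386, and 12 and 6 genes of the GA lists, against 5 and 0. Scaling by total counts shifted all log2 fold changes by -0.05 in the median. Over all tested genes, replicate numbers did not pair the libraries, with correlations of same-numbered deviations between -0.01 and 0.07. Single members can differ from this. A replicate block lowered the SE of *GA2OX2* from 0.11 to 0.053, and also that of *GA20OX1*, *GA2OX1* and *GA2OX6*. It raised the SE of *GA20OX2*, *GA3OX1*, *GA2OX4* and *GA2OX8*. With a replicate block, 983 genes were called higher and 387 lower, 1 member higher and 0 lower, and 5 genes of the GA lists higher and 0 lower, and *GA2OX7* was not called (adjusted p = 0.0135, edgeR). The cause of these losses was not tested. Depth limited *GA20OX3* and *GA3OX2*, with 39 and 44 reads over all libraries.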
